A study of Homo sapiens with 2 samples.

Results

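The regions described here are HMGA1 peaks at which growing vector cells already had 5 or more ChIP-seq tags. They were chosen from the deposited peak list by that vector tag count alone, and 503 of the 2352 listed peaks met it. Of these, 387 had 5 vector tags, 100 had 6, 11 had 7 and 5 had 8. Chromatin bound by HMGA1 was immunoprecipitated and sequenced (ChIP-seq) in IMR90, a line of human diploid fibroblasts, at population doublings 25 to 35 and in 2% oxygen. The RAS group was infected with a RAS retrovirus, which brings on oncogene-induced senescence, and the vector group with the empty retrovirus, both on days 1 and 2. Both groups were selected with 1 µg/ml puromycin from day 3 and harvested on day 12, so infection and drug were common to them. The RAS allele is not given in the labels, and all cells come from this 1 line. RAS and vector were sequenced once each. The deposited tag counts and their scaling put the depths at about 35400000 and 34100000 tags. With 1 library per group there is no replicate error and no test of RAS against vector.

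HMGA1 is a small, abundant chromatin protein whose AT hooks hold the minor groove of AT-rich DNA. It is plentiful in proliferating cells, and in senescent fibroblasts HMGA proteins are known to gather on chromatin and to be part of senescence-associated heterochromatin foci. A site occupied in both states would carry tags in both libraries, whereas a site with no binding still gets some tags from unbound DNA. The peak list holds no DNA letters, and no hg19 sequence or annotation was used here. The regions are therefore given by position (hg19), with no base composition and no gene.

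In these 503 regions, RAS cells had 21 to 38 HMGA1 tags, with a median of 23 (quartiles 22 and 26), and vector cells had 5 to 8. Peaks with 3 or 4 vector tags, of which there were 1477, had 13 to 30 RAS tags, with a median of 18 (quartiles 17 and 20). More vector tags thus went with more RAS tags, but the list itself asks for this. Every listed peak (100%) had at least 4 times as many RAS tags as vector tags after scaling to equal depth. A peak with 5 vector tags could be listed only from 21 RAS tags, one with 6 only from 25, one with 7 from 30 and one with 8 from 34 (the lowest values found on the list). The order of the classes in RAS tags is therefore set by the choice of regions and is given as a description.

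**Figure D1:**
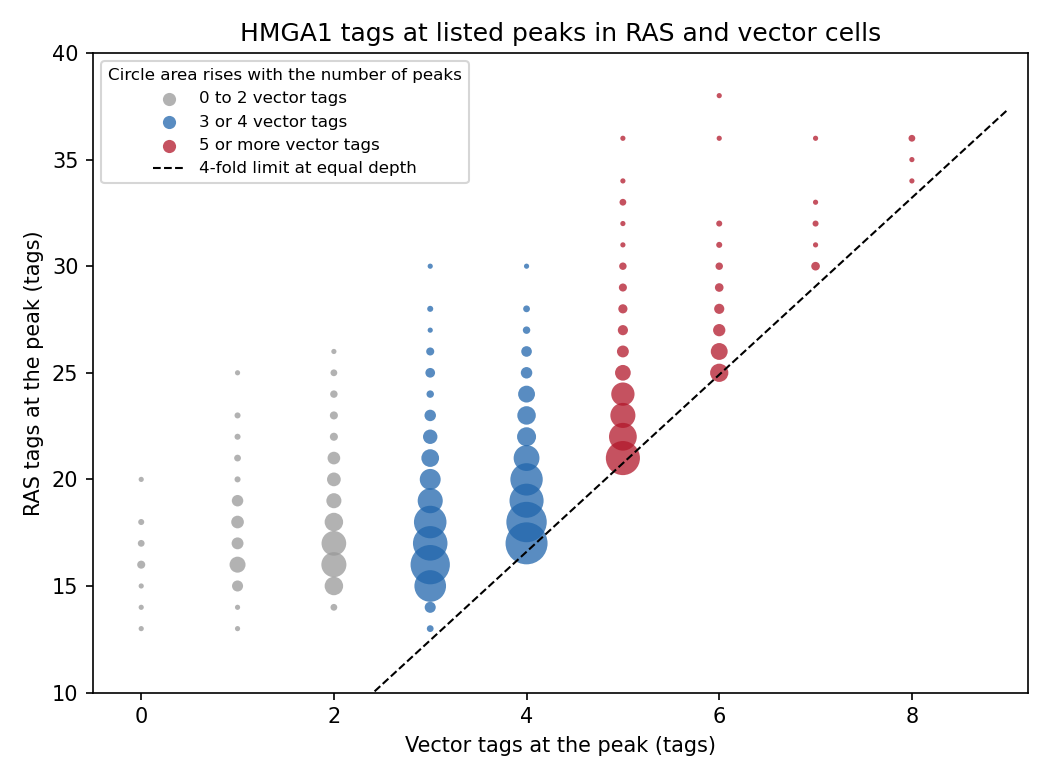
RAS tags (vertical axis, tags per peak) against vector tags (horizontal axis) for the 2352 listed peaks, with circle area rising with the number of peaks and the 4-fold limit as a dashed line. The 503 peaks with 5 or more vector tags (red) start at 21 RAS tags and crowd against the limit.

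For their RAS tags, most of the regions lay as close to the 4-fold limit as whole vector tags allow. At 423 of the 503 (84.1%) the vector tags were the most that their RAS tags permit, against 857 of 1477 (58.0%) for peaks with 3 or 4 vector tags. Over all listed peaks it was 1280 of 2352 (54.4%). With 21 or more RAS tags, a peak with 3 or 4 vector tags cannot have the most permitted, so the contrast follows from the choice of classes. At 21 to 24 RAS tags the most permitted is 5, so the 318 regions in that range had exactly 5 vector tags. The largest single group, 120 regions, had 21 RAS tags and 5 vector tags, which is a fold of 4.05. Just outside the choice, the 776 peaks with 4 vector tags had 17 to 30 RAS tags, and just inside it the 387 with 5 had 21 to 36. The regions were 50.6% of the 237 listed peaks with 21 RAS tags and 94.9% of the 39 with 30 or more. The 2 peaks with 30 or more RAS tags outside the choice had 30 RAS tags each.

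The fold of RAS over vector was near the lowest that the list admits at most of these regions. The fold of RAS over vector is the authors' own value for each peak, and so are the score, the focus ratio, the fold over the local surroundings and the p-values given below. Its median was 4.24 in the 503 regions (quartiles 4.05 and 4.63, range 4.02 to 6.94) and 5.06 in peaks with 3 or 4 vector tags (quartiles 4.58 and 5.54). A fold of 5 or more was reached by 49 regions (9.74%), where it was reached by 51.1% of all listed peaks. It was under 4.5 at 352 regions and 6 or more at 7, where the quartiles over all listed peaks were 4.34 and 6.10. With the total tags of a peak taken as fixed, an exact 95% interval of the tag ratio (Clopper-Pearson) was computed for each region. Its lower limit lay between 1.49 and 2.71, with a median of 1.65, and was 2 or more at 30 regions (5.96%), against 15.0% of all listed peaks. Since the vector tags chose the regions and enter each of these measures, the shares describe the choice and nothing is read from them. The intervals cover counting error in these 2 libraries only and take no account of the fold limit that every peak had passed.

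The regions with the highest fold were those with many RAS tags over 5 vector tags. Chromosome 10, 47120900 to 47121266, led with 36 RAS tags and 5 vector tags, a fold of 6.94 (95% counting interval 2.71 to 22.6). A second region on chromosome 10, 4425286 to 4425652, had 34 and 5 tags, a fold of 6.55 (2.55 to 21.5). Neither had another of the 503 regions within 1 Mb, which is the usual case, since 178 of 502 (35.5%) had one. The second had another listed peak at 97170 bp. A further 3 regions had 33 and 5 tags, a fold of 6.36 (2.47 to 20.9), which were chromosome 2, 195397208 to 195397574, chromosome 8, 111443291 to 111443657, and chromosome 11, 39503727 to 39504093. Chromosome 6, 103601435 to 103601801, had 32 and 5 tags, a fold of 6.17 (2.38 to 20.3). The region with the most RAS tags of the whole list, chromosome 2, 212706437 to 212706803, had 38 RAS tags over 6 vector tags, a fold of 6.10 (2.56 to 17.7). These intervals overlap one another almost entirely, so the order within the group is not resolved by the tags. Chromosome 11, 26433701 to 26434067, followed with 31 and 5 tags and a fold of 5.97. Chromosome 11, 10215246 to 10215612, with 36 and 6 tags, and chromosome 1, 59723664 to 59724030, with 30 and 5 tags, both had a fold of 5.78. The 10 regions lay on 6 chromosomes, with 3 of them on chromosome 11.

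The regions with the most vector tags, 8 each, numbered 5, and all had the most vector tags that the limit permits. Chromosome 1, 16936019 to 16936385, chromosome 8, 111597719 to 111598085, and chromosome 10, 57751848 to 57752214, had 36 RAS tags each, a fold of 4.34 (95% counting interval 1.98 to 10.8). Chromosome 4, 27951353 to 27951719, had 35 RAS tags, a fold of 4.22 (1.92 to 10.5). Chromosome 16, 8153439 to 8153805, had 34, a fold of 4.10 (1.86 to 10.2). The RAS counts of these 5 regions differ by at most 2 tags, which is less than counting error. Among them are 4 of the 5 regions with the highest findPeaks score. The region with 38 RAS tags and the chromosome 8 region had a score of 38, and those on chromosomes 1, 10 and 4 had 37.

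Whether the vector tags stand above background was then examined, because the choice treats 5 tags as HMGA1 signal in growing cells. Background was taken as the local background of the RAS library, that is, the scaled RAS tags of the peak divided by its fold over its surroundings. Its median in the 503 regions was 4.79 tags per peak width at the vector depth with quartiles of 4.14 and 5.35 and extremes of 1.91 and 8.53. The vector tags exceeded it at 366 regions (72.8%) and were 2 or more times as high at 11. In the 3 or 4 class they exceeded it at 561 of 1477 peaks (38.0%), a contrast that follows from choosing regions by their vector tags. The median ratio of vector tags to background was 1.08, the quartiles were 0.993 and 1.24, and single ratios went from 0.591 to 2.62. By its definition this ratio is the fold over the surroundings divided by the fold over vector. The list asks for 4 or more in both folds, and their medians in the regions were 4.72 and 4.24. A ratio near 1 is therefore favoured by the limits of the list, and nothing is read from it. Summed over the regions, 2652 vector tags stood against 2380 background tags, a ratio of 1.11, and the sum is held up by the choice of regions with 5 or more.

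**Figure D2:**
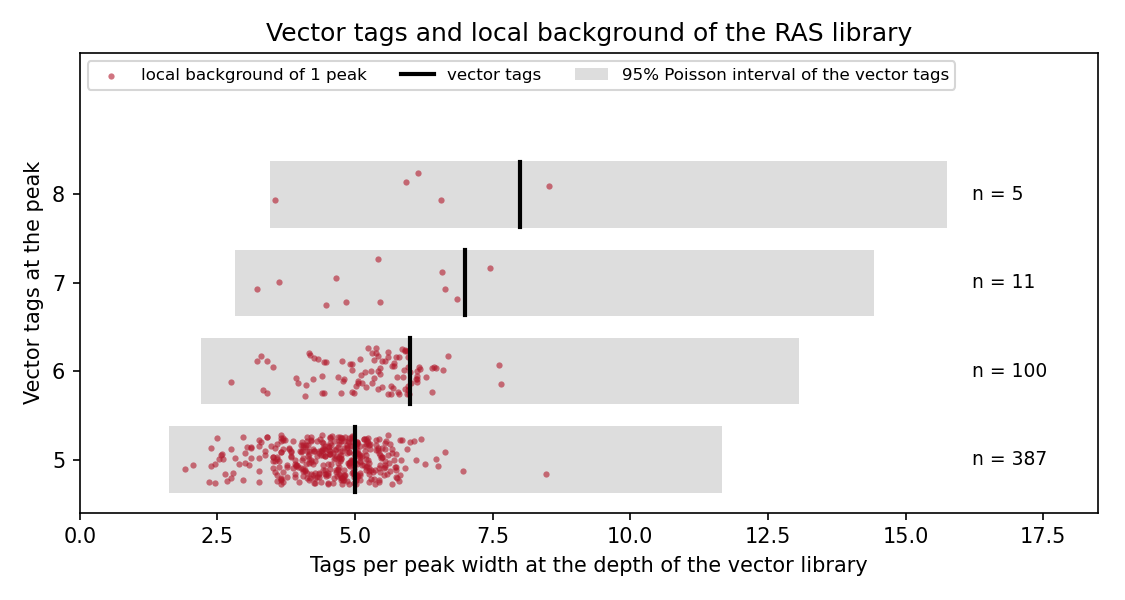
Local background of the RAS library (red points, 1 per peak, horizontal axis in tags per peak width at the vector depth) for the 503 peaks with 5, 6, 7 or 8 vector tags (rows; points are spread vertically for display), with the vector tags as a black line and their 95% Poisson interval in grey. All 503 points lie inside the grey intervals.

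Counts this low have wide counting intervals. A count of 5 tags has an exact 95% Poisson interval of 1.62 to 11.7, and a count of 8 has 3.45 to 15.8. The lower limit exceeded the local background at 0 of 503 regions, as it did at 0 of all 2352 listed peaks, so this is not a feature of the regions. At the 387 regions with 5 tags there was no room to exceed it, since the lowest background among the regions was 1.91. The 4-fold limit of the list also caps the vector tags against the RAS tags. The background is the divisor of the ratio, so high ratios fall in quiet surroundings by construction. Chromosome 17, 62917248 to 62917614, had 5 vector tags over a background of 1.91, the highest ratio at 2.62. Chromosome 4, 13547533 to 13547899, had 5 over 2.05, a ratio of 2.44. Among the regions with 8 vector tags, the chromosome 16 region had the highest ratio, 2.25, over a background of 3.55. The comparison could therefore show neither HMGA1 binding in vector cells nor its absence at a single region. For this reason the regions are called here by their rule, as peaks with 5 or more vector tags. Spread evenly over the spans of the listed peaks, the vector depth would give 4.35 tags per peak width, also near 5. That value is not a measured background. The comparison of vector tags with background has 2 further limits. The background is that of the RAS library, since the list gives none for vector. It is also held down by a second limit of the list, a fold over the surroundings of 4 or more.

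Local background was higher in the 503 regions than in peaks with 3 or 4 vector tags, where its median was 3.73 (quartiles 3.30 and 4.16). That gap of 1.06 tags shrank to 0.247 when peaks with 3 or 4 vector tags were restricted to the 280 with at least 21 RAS tags, whose median was 4.54. At 21 RAS tags exactly, the median background was 4.38 at 120 regions and 4.20 at 99 peaks with 3 or 4 vector tags. At 22 it was 4.54 (79 regions) and 4.52 (56 peaks), and at 23 it was 4.76 (64 regions) and 4.80 (46 peaks). At 24 it was 4.79 (55 regions) and 4.36 (32 peaks), at 25 it was 5.16 (57 regions) and 5.21 (20 peaks), and at 26 it was 5.54 (41 regions) and 5.24 (15 peaks). The regions thus had the higher median at 4 of these 6 tag counts and the lower at 2. With the 3 or 4 class weighted to the RAS tags of the regions, over the 469 regions with tag counts that both classes hold, the mean background was 4.65 against 4.59. The difference was 0.0617 tags. Within the range of 21 to 24 RAS tags, the median background was 4.68 at 29 peaks with 2 vector tags and 4.50 at 67 with 3. It was 4.27 at 166 with 4 and 4.56 at 318 with 5. It thus showed no steady climb with the vector tags, though it was higher at 5 than at 4. The limit of 4 on the fold over the surroundings holds the background down in this range, so a climb could hardly show.

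The regions with the highest background were also among the tallest. The list asks for this, since a fold over the surroundings of 4 or more lets only tall peaks have a high background. Chromosome 1, 16936019 to 16936385, had 8.53 background tags and chromosome 10, 47120900 to 47121266, had 8.46. Chromosome 5, 120852663 to 120853029 (32 RAS and 6 vector tags), had 7.64, the chromosome 2 region with 38 RAS tags had 7.61, and chromosome 3, 96551285 to 96551651 (32 and 7 tags), had 7.46. The fold over the surroundings was under 5 at all 5 of these regions, as it was at 314 of all 503 (62.4%). In the 3 or 4 class it was under 5 at 1007 of 1477 peaks (68.2%). At the other end stood regions whose RAS tags rose from quiet surroundings. Chromosome 17, 62917248 to 62917614, had 23 RAS tags at 11.6 times its surroundings, and chromosome 4, 13547533 to 13547899, had 25 at 11.8 times (background 2.05). Chromosome 14, 24172526 to 24172892 (23 RAS tags), had a background of 2.35, chromosome 18, 59183973 to 59184339 (22 RAS tags), had 2.38, and chromosome 2, 8563533 to 8563899 (25 RAS tags), had 2.38. Each of these 5 regions in quiet surroundings had 5 vector tags. A fold over the surroundings of 8 or more was found at 16 of 503 regions (3.18%), and at 9 of 280 peaks (3.21%) with 3 or 4 vector tags and at least 21 RAS tags.

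The findPeaks score followed the RAS tags and carried little else. It was 21 to 38 in the 503 regions, with a median of 24 (quartiles 22 and 26), and had a median of 19 (quartiles 17 and 21) in peaks with 3 or 4 vector tags. It equalled the RAS tags at 231 regions, was 1 higher at 214 and 2 or 3 higher at 58. The share with score and RAS tags equal was 45.9% in the regions and 45.8% in the 3 or 4 class. Weighted to equal RAS tags, the mean score was 24.17 in the regions and 24.18 in the 3 or 4 class. The clonal fold, a measure of how often tags repeat a position, took a single value at each of the 25 RAS tag counts on the list, so it tells the classes apart only through those counts.

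The focus ratio gives the fraction of tags in a peak whose strand and side fit binding at a single point, so a high ratio means a sharp peak. It uses the RAS tags only, so the vector count enters it only through the 4-fold limit. Its median was 0.743 in the 503 regions (quartiles 0.688 and 0.794, range 0.50 to 0.939) and 0.727 in peaks with 3 or 4 vector tags (quartiles 0.680 and 0.786, range 0.467 to 0.960). The gap between medians was 0.016. Exact 95% intervals of the medians over peaks, which are not replicates, were 0.735 to 0.750 and 0.720 to 0.731. For the 280 peaks of the 3 or 4 class with at least 21 RAS tags, the median was 0.729 with an interval of 0.719 to 0.738, which overlaps that of the regions. A ratio of 0.8 or more was found at 122 regions (24.3%), at 310 peaks (21.0%) of the 3 or 4 class and at 49 of 280 (17.5%) of that class with at least 21 RAS tags. A ratio under 0.6 was found at 14 regions (2.78%) and at 56 peaks (3.79%) of the 3 or 4 class. Weighted to equal RAS tags, the means were 0.737 and 0.735.

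**Figure D3:**
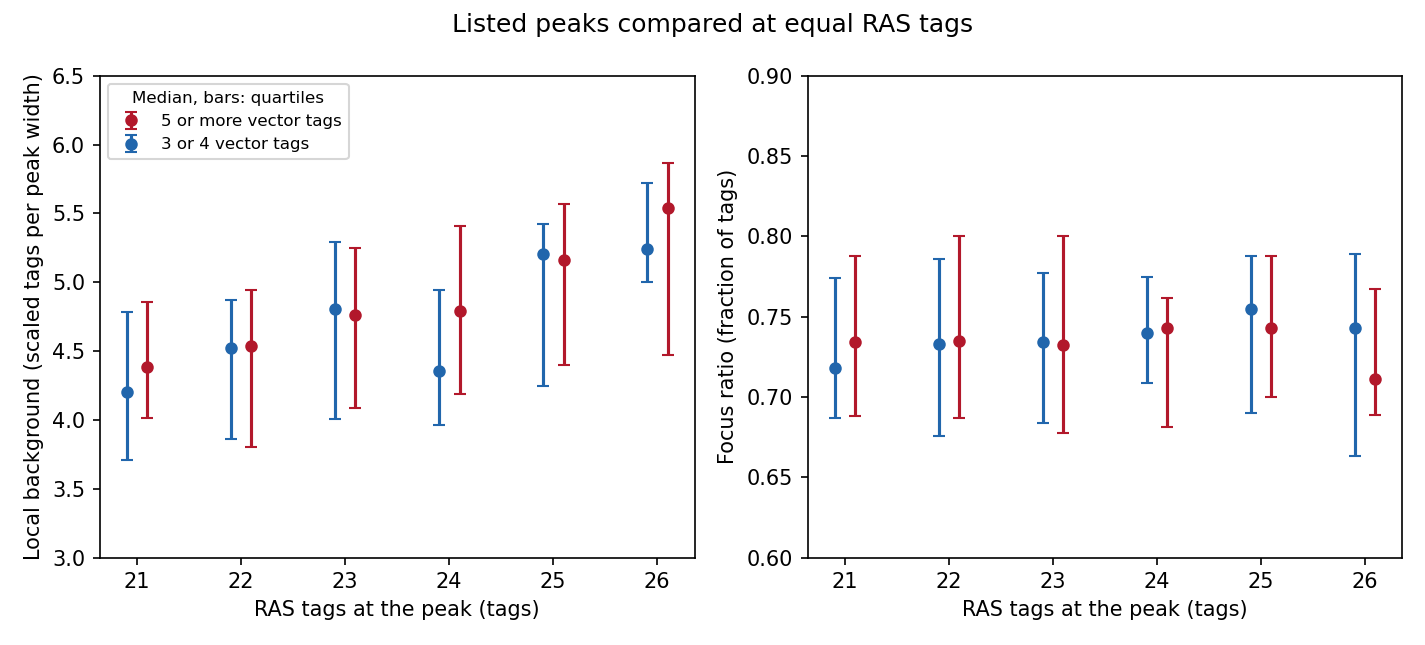
Median local background (left, scaled tags per peak width) and median focus ratio (right, fraction of tags) at 21 to 26 RAS tags, for peaks with 5 or more vector tags (red) and 3 or 4 (blue), with bars from the lower to the upper quartile over peaks. The bars of the classes overlap at each of the 6 tag counts in both panels; at 21 RAS tags the background medians are 4.38 and 4.20.

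Sharply focused regions and diffuse ones both occurred at the same tag counts. Chromosome 8, 108556020 to 108556386, had the highest focus ratio, 0.939, with 28 RAS tags and 6 vector tags. Chromosome 4, 13547533 to 13547899, the region with the highest fold over its surroundings, followed at 0.929 with 25 and 5 tags. It combined a point-like shape with a background of 2.05 tags. A focus ratio of 0.920 was shared by chromosome 2, 207454218 to 207454584, chromosome 6, 32369481 to 32369847, and chromosome 8, 84971218 to 84971584, each with 21 RAS tags and 5 vector tags. The lowest ratio, 0.50, was found on chromosome 1 at 157057822 to 157058188 and at 172261218 to 172261584, also with 21 and 5 tags. Chromosome 12, 71588294 to 71588660, and chromosome 14, 46575040 to 46575406, had 0.537 with 22 and 5 tags, and chromosome 17, 29356692 to 29357058, had 0.545 with 21 and 5. Of these 10 regions, 6 had 21 or 22 RAS tags, a score of 21 or 22 and a fold over the surroundings between 4.03 and 4.13, and 3 of the 6 stood at each end of the range of the focus ratio.

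The 503 regions lay on every autosome and on X, and 1 was placed on Y. IMR90 cells are known to carry no Y chromosome, so the tags of that region cannot come from one, and it is not described further. Over chromosomes 1 to 22 and X there were 0.175 regions per Mb of the span between the first and last listed peak. As a share of the listed peaks of a chromosome, they made up 21.4% of the whole list. The share was highest on chromosome 18 (20 of 68, 29.4%, exact 95% interval 19% to 41.7%), chromosome 11 (37 of 129, 28.7%, 21.1% to 37.3%) and chromosome 4 (41 of 156, 26.3%, 19.6% to 33.9%). Chromosomes 17 (4 of 44, 9.09%, 2.53% to 21.7%) and 19 (2 of 22, 9.09%, 1.12% to 29.2%) had the lowest share. The 95% interval of each of the 23 chromosomes held the share of the whole list. On chromosomes 16, 17, 19 and 22 together, a set put together after the shares were seen and known to be rich in genes, the regions were 14 of 131 listed peaks (10.7%, 5.97% to 17.3%). These chromosomes had the lowest shares of the 23, so the low pooled share follows from that choice and nothing is read from it. On the gene-poor chromosomes 4, 13 and 18 the regions were 76 of 306 (24.8%, 20.1% to 30.1%), and on X 27 of 131 (20.6%, 14% to 28.5%). Chromosome 13 alone had 15 of 82 (18.3%), under the share of the whole list.

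Counted among peaks with at least 21 RAS tags, the regions made up 61.0% of the list (503 of 824). The corresponding shares were 14 of 28 (50.0%, exact 95% interval 30.7% to 69.3%) on chromosomes 16, 17, 19 and 22 and 76 of 122 (62.3%, 53.1% to 70.9%) on 4, 13 and 18, and these intervals overlap. Of all listed peaks, 28 of 131 on the former set and 122 of 306 on the latter had at least 21 RAS tags. The median local background of all listed peaks was 3.62 on the former set and 4.01 on the latter. Its part in the shares was not tested. Over the 23 chromosomes, the share of regions and the median background of the listed peaks had a Spearman's rho of 0.52 and a Pearson's r of 0.54. Both quantities rest on the same RAS library and on as few as 18 peaks for a chromosome, so this is a description. The tags in the regions varied little by chromosome, with median RAS tags between 21.5 (chromosome 21, 4 regions) and 25 (chromosomes 8 and 9).

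**Figure D4:**
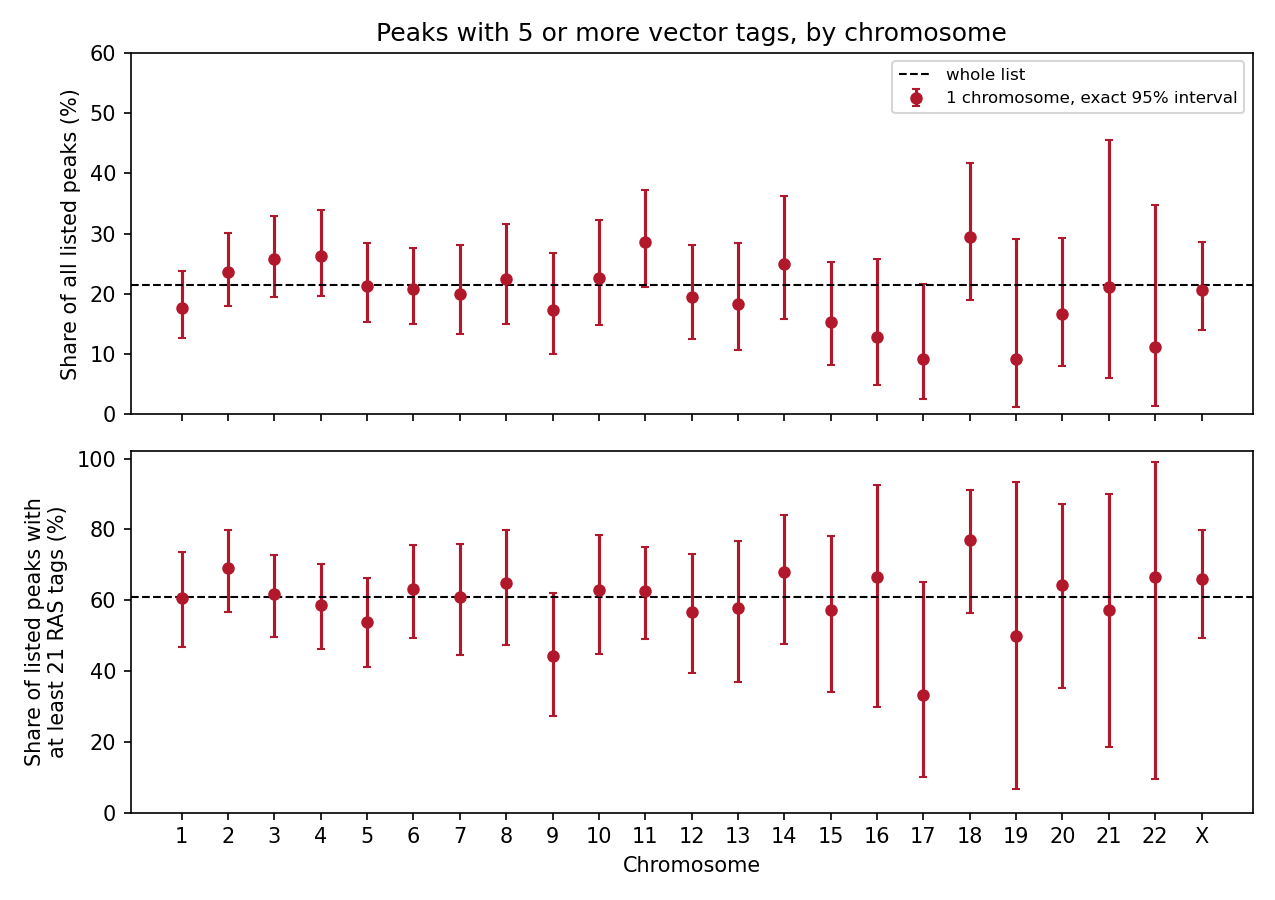
Peaks with 5 or more vector tags as a share (%) of all listed peaks (upper panel) and of listed peaks with at least 21 RAS tags (lower panel) on each of 23 chromosomes, with exact 95% intervals for counting error and the share of the whole list as a dashed line. Each interval crosses its line, at 21.4% above and 61.0% below.

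The regions were few and far apart. Their distances to the nearest listed peak were close to those of peaks with 3 or 4 vector tags. The median distance from a region to the nearest other of the 503 was 1.66 Mb (quartiles 674 and 3658 kb), and 18 of 502 (3.59%) had another within 100 kb. From peaks with 3 or 4 vector tags to the nearest of the 503 regions the median was 2.06 Mb, and 3.59% again lay within 100 kb. To the nearest listed peak of any kind the median was 394 kb for the regions and 368 kb for peaks with 3 or 4 vector tags. Of the 502 regions with a neighbour on their chromosome, 133 (26.5%, exact 95% interval 22.7% to 30.6%) had another of the regions as their nearest listed peak. The share was 21.1% (19.1% to 23.3%) from the 3 or 4 class, and 23.9% (19.1% to 29.4%) from the 280 peaks of it with at least 21 RAS tags. The regions themselves were 21.4% of all listed peaks. Regions that are each other's nearest peak count in pairs, so these intervals are too narrow. The intervals from the 3 or 4 class and from its 280 peaks overlap with that of the regions. A nearest peak with at least 21 RAS tags was found for 43.0% of the regions and for 38.2% of those 280 peaks, where such peaks were 35.0% of the list.

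**Figure D5:**
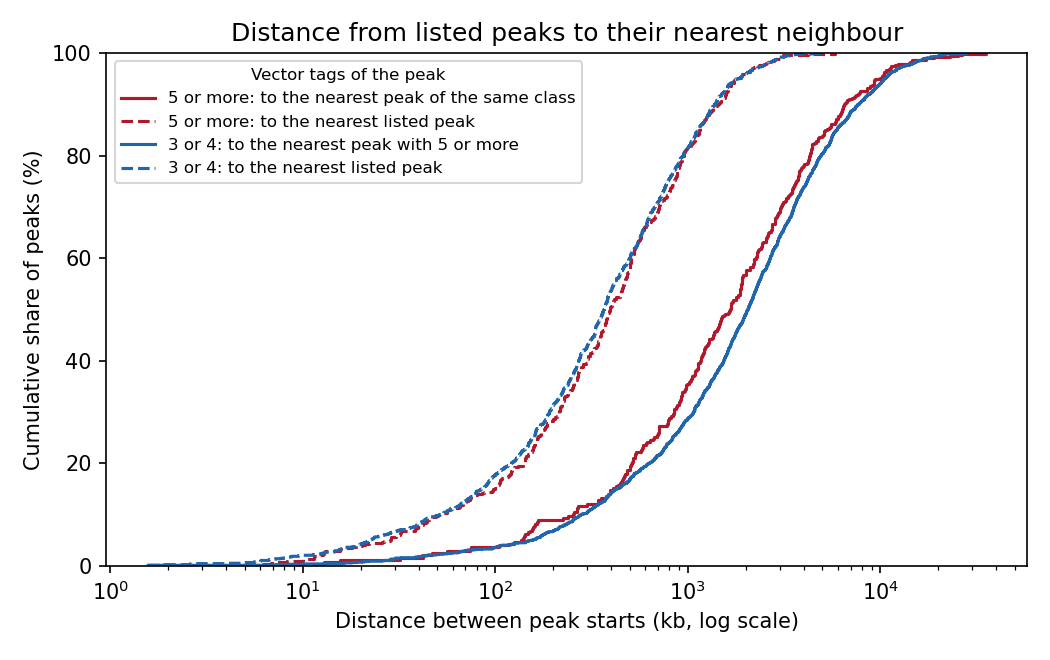
Cumulative share of peaks (%) by distance to the nearest neighbour (kb, log scale), for peaks with 5 or more vector tags (red) and 3 or 4 (blue), measured to the nearest peak with 5 or more (solid) or to the nearest listed peak (dashed). The dashed curves run close together, with medians of 394 and 368 kb, and the solid curves have medians of 1.66 and 2.06 Mb.

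The 5 closest pairs lay on 5 chromosomes, with 0 other listed peaks between the partners. On chromosome 13 the regions 108493791 to 108494157 (27 RAS and 5 vector tags) and 108505244 to 108505610 (25 and 6) were 11453 bp apart, and their focus ratios were 0.80 and 0.722. On chromosome 2 the regions 40933992 to 40934358 (26 and 6 tags) and 40946935 to 40947301 (21 and 5) were 12943 bp apart, with focus ratios of 0.622 and 0.781. On chromosome 3 the regions 96535690 to 96536056 (26 and 5) and 96551285 to 96551651 (32 and 7) were 15595 bp apart and had local backgrounds of 5.84 and 7.46 tags. Both partners of the chromosome 3 pair stood on more background than the median region. So did those of the chromosome 2 pair (4.95 and 5.01 tags) and of the chromosome 1 pair below (5.89 and 5.25 tags). The partners of the chromosome 13 pair (4.355 and 5.49 tags) lay on either side of the median of 4.79. The same held for the chromosome 12 pair below (4.856 and 4.2 tags). On chromosome 12 the regions 103686104 to 103686470 and 103717991 to 103718357, each with 21 and 5 tags, were 31887 bp apart. On chromosome 1 the regions 108180302 to 108180668 (29 and 6) and 108222535 to 108222901 (23 and 5) were 42233 bp apart. In each of the 5 pairs the partners' tag counts differed by less than counting error.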

How the data were processed

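HMGA1 ChIP-seq tags were compared in 1 RAS and 1 vector library. Per the submitters' processing notes, Bowtie 0.12.9, HOMER and build hg19 were used. Settings, duplicate removal and input DNA were not given in the sources used here. Per the labels' protocols, each library started from 10 ng of DNA and had 12 PCR cycles. No column of the deposited list names a library, so RAS was read as the peak-called library and vector as the control from the name of the table.

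Per the file headers, the deposited list holds the RAS signal per 10000000 tags, RAS signal scaled to the vector depth, vector tags (0.5 written for 0), a focus ratio (fraction), a findPeaks score, folds (ratio) over vector, surroundings and clonal tags, and a p-value for each of the first 2. Whole RAS tags were recovered from steps of 0.282, within 0.1 tag in 99.7% of peaks. With them, the deposited p-value over the surroundings equalled a Poisson upper tail within 5% in 100% of peaks. The scaling factor was 0.963, and each peak spanned 366 bp.

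Members, classes and alternatives were chosen with earlier results of these data known. Peaks are not replicates, so classes are described by medians, quartiles and counts, with no test. Peaks named are the 10 members with the highest fold, those with the most vector tags, the 5 highest and lowest in focus ratio and in local background, the 5 closest pairs and the 5 highest in score, with ties going to more RAS tags. Intervals are exact at 95% and cover counting error only, since PCR tags without molecular identifiers are not independent molecules. Python 3.11.15, numpy 2.4.6, pandas 2.3.3, scipy 1.17.1 and matplotlib 3.10.9 were used, and the calculations were tested on simulated data.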

Additional observations from a re-analysis of the deposited data

How the results depend on the processing

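Values here are gaps between medians, members minus peaks with 3 or 4 vector tags. With at least 21 RAS tags in both classes, the gap fell from 5 to 1 in RAS tags, from 5 to 1 in score and from 1.06 to 0.247 in local background, and in fold it went from -0.82 to -1.54. At 21 to 24 RAS tags, added after seeing the data, it was 0 in RAS tags. Weighting to equal RAS tags, also added and comparing means, gave -0.00321 in score, which reverses its sign, 0.0017 in focus ratio (0.016 as reported) and 0.0617 in local background. Taking 6 or more vector tags left 116 members, with gaps of 8 in RAS tags, 8 in score and 1.73 in local background and a median distance between nearest members of 11.1 Mb (1.66 as reported). A fold of 5 or more left 49 members (gaps of 10, 9 and 1.87, and of -0.14 in fold; distance 21.9 Mb). Asking for an authors' p-value of 1e-10 or less left 50 members (gaps of 7 in score, 0.036 in focus ratio and -1.45 in fold; distance 18.9 Mb). Fewer members lie farther apart by construction. Against all peaks with 0 to 4 vector tags the gap in score was 6, and with 1 tag added to both libraries the gap in fold was -0.371. The distance to the nearest listed peak of any class was 0.394 Mb, 0% of members had another within 10 kb, and members were 61.0% of the peaks with at least 21 RAS tags in place of 21.4% of all. Autosomes alone, and merging within 10 kb, moved none of the values they were run on by more than the exact 95% interval of the median, or by more than 1.5 times for a count. No paired analysis was possible because RAS and vector have 1 library each, which also leaves no replicate to omit. Depth limits each region: 5 vector tags allow a rate of 1.62 to 11.7.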
